A study of Homo sapiens with 11 samples.

Results

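The cancer testis antigen families described here are 74 of the 57815 genes listed in the RNA-seq tables. They were chosen by symbol alone: the numbered MAGEA, MAGEB and MAGEC genes, the GAGE, PAGE, XAGE and SSX genes, CTAG1A, CTAG1B and CTAG2, and the single genes PRAME, DDX43, SYCP1 and TEX15. The symbols gave 11 MAGEA, 10 MAGEB, 3 MAGEC, 17 GAGE, 6 PAGE, 9 XAGE, 11 SSX and 3 CTAG genes, and 70 of the 74 lie on the X chromosome. RNA was sequenced from DMS153 in 3 libraries, from H209 in 2 and from MRC5 in 3, and each line also had 1 Hi-C library. DMS153 and H209 are small cell lung carcinoma lines and MRC5 is a line of non-cancerous lung fibroblasts, all grown untreated in the same serum-supplemented RPMI medium. The titles of the DMS153 RNA libraries read DM153, while their cell line field reads DMS153. Each line stands for itself only, a difference between a carcinoma line and MRC5 is also one between cell types, and the labels do not say whether replicates were separate cultures, so the p-values speak of the scatter among the libraries at hand, which could be purely technical.

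Cancer testis antigens are proteins whose genes are used in male germ cells, kept silent in most adult somatic tissues and switched on again in many tumours, which makes their peptides targets for T cells and vaccines. DNA methylation of their promoters is the best known part of this silencing. The X-linked families grew by repeated duplication, so neighbouring copies can be nearly identical. The MAGE proteins bind E3 ubiquitin ligases, the SSX proteins are transcriptional repressors best known from gene fusions in synovial sarcoma, and PRAME is a substrate receptor of a cullin ligase and a repressor of retinoic acid receptor signalling.

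The libraries carried the markers of their labelled cell types. The summed level of 7 neuroendocrine markers (among them INSM1, CHGA and SYP) was 1513 to 1634 FPKM in DMS153, 1057 to 1063 FPKM in H209 and 0.255 to 0.363 FPKM in MRC5, where FPKM is fragments scaled by transcript length and by the library's mapped fragments. The sum of 8 fibroblast markers was 7.20 to 9.37 FPKM in DMS153, 27.3 to 32.3 FPKM in H209 and 7431 to 8274 FPKM in MRC5. Of 6 male germ cell markers, which include DDX4, DAZL and PRM1, 0 averaged 1 FPKM in any line, and their sum stayed at or below 0.749 FPKM in every library, with 2 of the 6 at 0 in all DMS153 libraries, 1 in H209 and 4 in MRC5. Loci of microRNAs took 35.2% to 38.9% of the summed FPKM in DMS153 and at most 0.0448% elsewhere. These are shares of FPKM and not of fragments, whose numbers are unknown. Changes of scaling moved the median log2 fold change of all genes tested to between -0.03 and 0.67 in DMS153 against MRC5. The median moved to between 0.03 and 0.70 in H209 against MRC5 and to between -0.60 and 0.05 in DMS153 against H209. The comparisons thus depend on the scaling, with or without DMS153. The part that the microRNA loci have in this was not tested. In bulk RNA, fewer cells that use a gene and less RNA per cell cannot be told apart.

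Both carcinoma lines transcribed cancer testis antigen genes at high levels, and MRC5 held almost none of this RNA. Summed over the 74 genes, the level was 218, 236 and 218 FPKM in DMS153, 311 and 320 FPKM in H209, and 0.309, 0.435 and 0.323 FPKM in MRC5. Each carcinoma library stood far above each fibroblast library, and both H209 libraries stood above all 3 DMS153 libraries. Over the 70 X-linked members, which leave out PRAME, the 2 carcinoma lines overlapped. Their sums were 156, 170 and 155 FPKM in DMS153 and 168 and 172 FPKM in H209. A mean of at least 1 FPKM was reached by 19 members in DMS153, by 10 in H209 and by 0 in MRC5. In percentages of the 74 these are 25.7%, 13.5% and 0%, beside 28.7%, 27.7% and 23.3% of all listed genes and 23.9%, 21.3% and 18.3% of all listed X-chromosome genes.

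The 2 carcinoma lines used different genes. MAGEA2, MAGEA3, MAGEA6 and PRAME reached 1 FPKM in both. DMS153 alone reached it for 15 members: 5 GAGE2 genes, 6 GAGE12 genes, MAGEC1, PAGE1, SSX6 and SSX4B. H209 alone reached it for 6: MAGEA1, MAGEA4, MAGEA10, MAGEA11, MAGEA12 and MAGEC2. The other 49 stayed under 1 FPKM on average in all 3 lines, 4 of them listed at 0 in all 8 libraries.

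**Figure D1:**
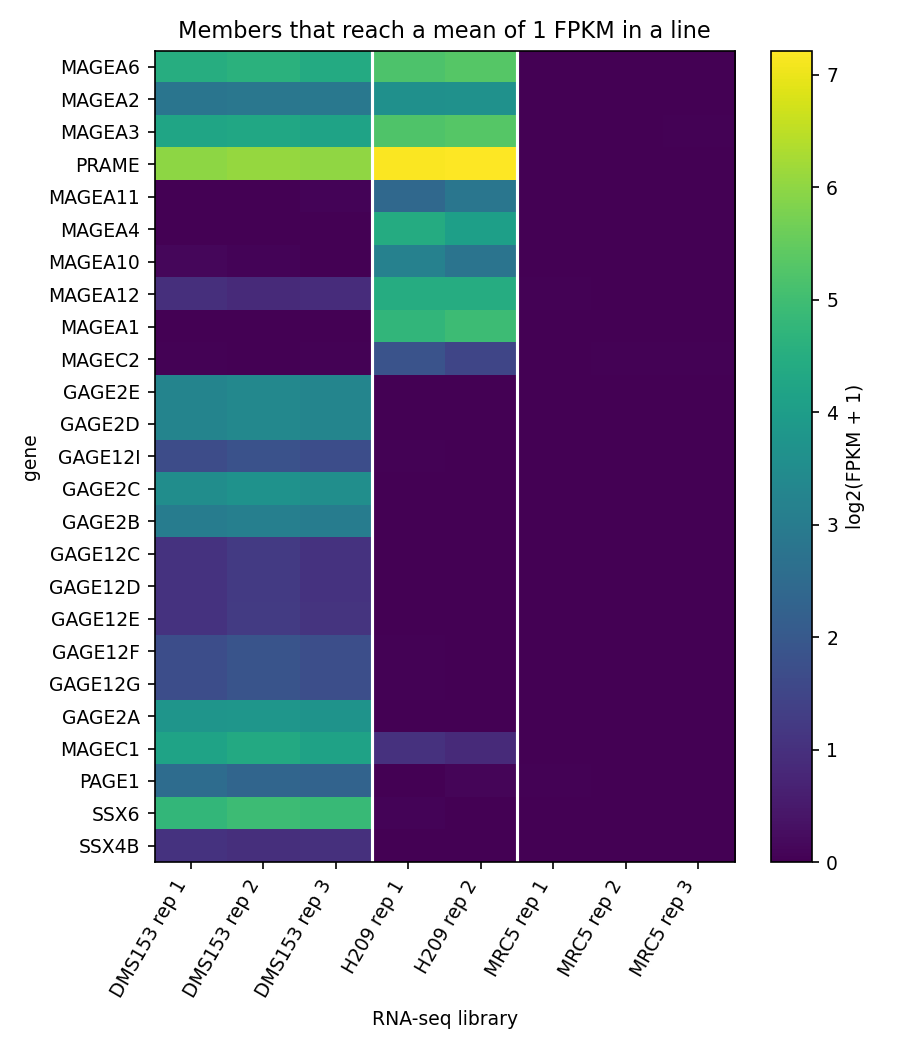
Level of the 25 members that average at least 1 FPKM in a line (rows) in each of the 8 RNA-seq libraries (columns), in colour on the log2(FPKM + 1) scale. The top 4 rows are bright in both carcinoma lines, the next 6 in H209 and the remaining 15 in DMS153, and the 3 MRC5 columns are dark throughout.

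Tests used limma on log2(FPKM + 1) over the 19066 genes with at least 1 FPKM in 2 libraries, and a call needed both an adjusted p (Benjamini-Hochberg) under 0.05 and a log2 fold change that was 1 or more in size. On this scale the change of a low gene is understated. Of the 74 members 25 were tested, those named above, and each entered through the line where it is high, so the counts describe them and support nothing further. In DMS153 against MRC5, 19 members were called higher and 0 lower, beside 34% and 16.4% of all genes tested, and the median log2 fold change was 1.77 over the 25 members and 0.44 over all genes. In H209 against MRC5, 10 were called higher and 0 lower, beside 33% and 14.9%, with medians of 0.03 and 0.46. In DMS153 against H209, 15 were called higher and 8 lower, beside 13.8% and 13.4%, with medians of 1.10 and -0.04. At an unadjusted p under 0.05 with no fold threshold, 0 tested members were lower in either carcinoma line against MRC5. The libraries of the compared lines did not overlap for any of the called members, which held as well for 9557 of the 9612 genes called in DMS153 against MRC5, 9137 of 9139 in H209 against MRC5 and 5132 of 5169 in DMS153 against H209. The comparisons with MRC5 share the same 3 fibroblast libraries.

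Near-identical copies set a limit on single genes. In 10 pairs of members, among them GAGE2D with GAGE2E, GAGE12F with GAGE12G and CTAG1A with CTAG1B, the levels differed by at most 5% in every library where a copy reached 0.005 FPKM, which was 1 to 5 libraries a pair, and 12 members belong to such a pair. How the reads of such copies were divided is not given in the sources used here, so families were also summed in each library and the sums tested in place of their members.

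**Figure D2:**
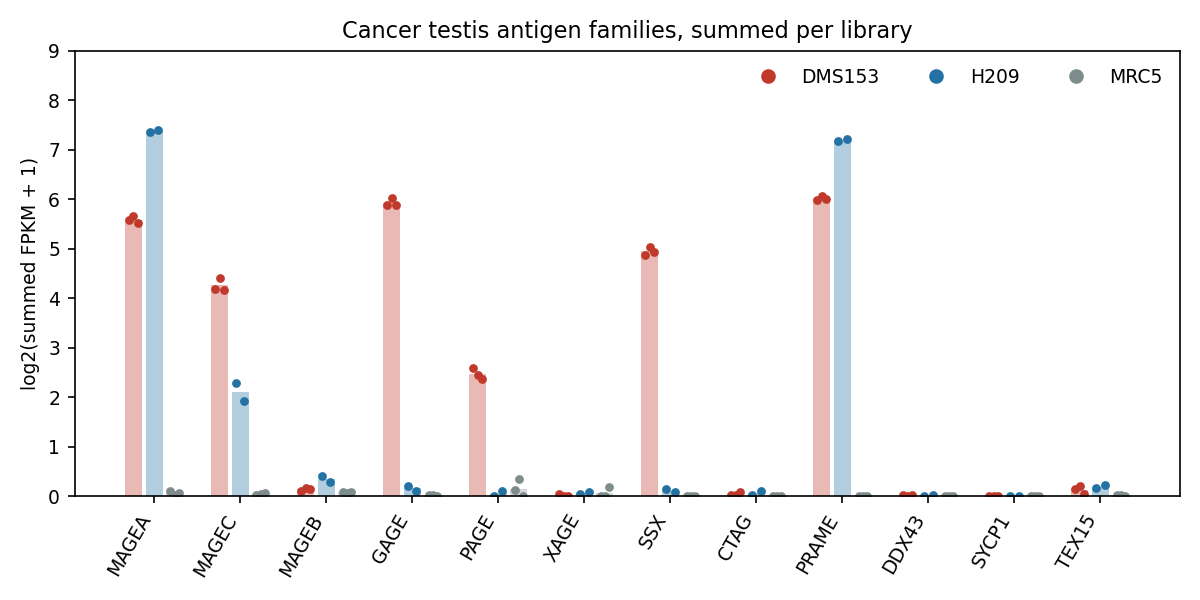
Summed level of each family, and the level of the 4 single genes, on the log2(summed FPKM + 1) scale, with bars for the mean of each line (DMS153, H209, MRC5 from left to right) and points for the libraries. MAGEA and PRAME are high in both carcinoma lines, GAGE, SSX and PAGE in DMS153, MAGEC at a higher level in DMS153 than in H209, and the other families and genes lie near 0.

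The promoters show how alike and how unlike these genes are. The RefSeq promoter table (build GRCh38.p14, 250 bases before to 50 bases after a transcript start) held 71 promoters of 53 of the 74 members, and 5 are printed as examples of the patterns: MAGEA3 of the genes high in both carcinoma lines, MAGEA4 of those high in H209, MAGEC1 and GAGE2A of those high in DMS153, and PRAME as a gene off the X chromosome. MAGEA4, MAGEC1 and GAGE2A are not the highest genes of theirs. Capitals mark CCGGATGT, which differs by a single letter from the ETS-type motif CCGGAAGT, and ACTTGCGCA. All 3 were searched on both strands, do not overlap one another in these promoters, and were chosen after the sequences were seen.
MAGEA3: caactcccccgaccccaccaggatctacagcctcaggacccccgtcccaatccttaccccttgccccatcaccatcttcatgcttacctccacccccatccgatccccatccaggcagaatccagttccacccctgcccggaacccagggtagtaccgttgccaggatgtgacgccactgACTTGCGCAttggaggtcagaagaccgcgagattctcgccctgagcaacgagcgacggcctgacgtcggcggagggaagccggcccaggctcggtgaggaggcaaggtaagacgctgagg
MAGEA4: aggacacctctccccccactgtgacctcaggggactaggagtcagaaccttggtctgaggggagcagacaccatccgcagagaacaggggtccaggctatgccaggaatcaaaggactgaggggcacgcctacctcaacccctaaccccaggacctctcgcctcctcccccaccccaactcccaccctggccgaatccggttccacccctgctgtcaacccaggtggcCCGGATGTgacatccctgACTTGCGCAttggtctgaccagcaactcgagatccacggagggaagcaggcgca
MAGEC1: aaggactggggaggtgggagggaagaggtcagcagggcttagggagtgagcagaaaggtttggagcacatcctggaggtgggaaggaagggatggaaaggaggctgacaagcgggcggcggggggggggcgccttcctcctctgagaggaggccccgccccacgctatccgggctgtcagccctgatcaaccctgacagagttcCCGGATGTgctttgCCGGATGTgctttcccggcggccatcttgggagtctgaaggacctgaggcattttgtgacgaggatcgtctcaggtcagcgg
GAGE2A: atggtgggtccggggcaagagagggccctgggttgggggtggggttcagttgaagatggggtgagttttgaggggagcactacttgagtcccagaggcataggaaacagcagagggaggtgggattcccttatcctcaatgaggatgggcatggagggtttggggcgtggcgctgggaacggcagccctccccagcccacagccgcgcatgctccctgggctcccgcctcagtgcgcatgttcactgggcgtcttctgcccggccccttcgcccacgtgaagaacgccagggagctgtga
PRAME: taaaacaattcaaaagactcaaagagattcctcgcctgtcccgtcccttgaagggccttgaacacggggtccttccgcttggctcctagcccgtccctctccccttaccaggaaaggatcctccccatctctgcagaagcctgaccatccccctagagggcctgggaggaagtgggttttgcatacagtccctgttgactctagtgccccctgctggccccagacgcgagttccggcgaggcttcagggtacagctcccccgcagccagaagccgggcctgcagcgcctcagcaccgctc
These lie at chrX:152698544-152698843 (MAGEA3, plus strand), chrX:151912224-151912523 (MAGEA4, plus strand), chrX:141903644-141903943 (MAGEC1, plus strand), chrX:49589246-49589545 (GAGE2A, plus strand) and chr22:22559216-22559515 (PRAME, minus strand), all in GRCh38.p14, whereas the expression and domain tables use hg19.

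The MAGEA promoters shared short words that are rare elsewhere. CCGGATGT was in 11 of 14 MAGEA promoters (78.6%, in 5 of the 8 MAGEA genes with a promoter), in 2 of 3 MAGEC promoters and in 3 of 11 MAGEB promoters, beside 0.701% of all 35116 promoters and 2.75% of those on the X chromosome. It was in 0 of the GAGE, PAGE, SSX, XAGE and PRAME promoters. ACTTGCGCA was in 9 of 14 MAGEA promoters (64.3%), those of MAGEA2, MAGEA3, MAGEA4 and MAGEA6, beside 0.142% of all promoters. These promoters are windows at transcript starts, of which MAGEA4 has 5, and the windows of MAGEA2 and of MAGEA12 overlap. A single site can thus be counted more than once. By gene, CCGGATGT was in 228 of all 27305 and ACTTGCGCA in 42, beside 5 and 4 of the 8 MAGEA genes. The words were chosen after the sequences were seen, so these shares test nothing. CCGGAAGT was in 2.82% of the members' promoters and 4.14% of all. Neither marked word sorted the MAGEA genes by line, since MAGEA4, high in H209 alone, and MAGEA2, high in both carcinoma lines, carry both. The median number of CG dinucleotides per promoter was 13 over the members and 14 over all promoters. A match is a description of these letters and not of a bound site.

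The MAGEA family, whose proteins include the T cell antigens MAGE-A1, MAGE-A3 and MAGE-A4, was high in both carcinoma lines and highest in H209. Its sum was 46.6, 49.7 and 45.0 FPKM in DMS153, 163 and 169 FPKM in H209, and 0.0765, 0.0179 and 0.0498 FPKM in MRC5. The 3 lines did not overlap. In limma the sum was higher in DMS153 than in MRC5 by 5.52 ± 0.06 (log2 fold change ± SE, adjusted p = 5.96e-12), higher in H209 than in MRC5 by 7.32 ± 0.07 (adjusted p = 1.10e-11), and lower in DMS153 than in H209 with a log2 fold change of -1.80 ± 0.07 (adjusted p = 6.15e-08). The number of MAGEA genes at 1 FPKM was 3 in DMS153 and 8 in H209, of 11.

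MAGEA3 and MAGEA6, whose proteins activate the ligase TRIM28, were the leading MAGEA genes of both carcinoma lines. MAGEA3 had 17.9, 18.8 and 17.3 FPKM in DMS153, 36.2 and 39.01 FPKM in H209, and 0.0105, 0.00881 and 0.0351 FPKM in MRC5. MAGEA6 had 21.4, 23.3 and 20.2 FPKM in DMS153, 35.5 and 38.9 FPKM in H209, and 0.0104, 0.00871 and 0.00897 FPKM in MRC5. The 300-base promoters of the pair are identical in all 300 bases, and their levels in a given library were close. Together they held 39.6 ± 2.34 FPKM in DMS153 (SD, n = 3), 74.8 ± 4.36 FPKM in H209 (SD, n = 2) and 0.0275 ± 0.0144 FPKM in MRC5 (SD, n = 3). MAGEA3 was lower in DMS153 than in H209 with a log2 fold change of -1.02 ± 0.08 (limma adjusted p = 2.94e-06), and MAGEA6, at -0.76 ± 0.08, missed the fold threshold. The MAGEA3 call rests on the threshold: it ended at -0.88 with median ratio scaling, at -0.95 with small RNA and mitochondrial genes left out of the scaling, at -0.997 without DMS153 replicate 3 and at -0.97 without H209 replicate 2, and with TPM scaling (FPKM rescaled to a fixed sum in each library) MAGEA6 was called at -1.40.

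MAGEA2 followed the same order at a lower level. It had 6.02, 6.30 and 6.36 FPKM in DMS153, 11.4 and 11.4 FPKM in H209, and was listed at 0 in the 3 MRC5 libraries. Its log2 fold change in DMS153 against H209 was -0.78 ± 0.07 and missed the fold threshold, and with TPM scaling it was called at -1.41. The symbol rule leaves out its near copy MAGEA2B, which held 71.3% of the pair's level in DMS153 and 72.0% in H209. The pair together had 21.7 ± 1.34 FPKM in DMS153 (SD, n = 3) and 40.7 ± 1.76 FPKM in H209 (SD, n = 2) and was listed at 0 in MRC5.

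The remaining MAGEA genes separated the carcinoma lines. MAGEA1, the founding member of the family, was listed at 0 in all DMS153 libraries and had 25.6 and 30.1 FPKM in H209, with 0 in all MRC5 libraries. MAGEA4, a target of engineered T cells in clinical use, had 0, 0.00437 and 0.00244 FPKM in DMS153, 20.7 and 15.8 FPKM in H209, and 0 in MRC5. Both were thus seen at a substantial level in H209 alone. MAGEA12 had 0.964, 0.808 and 0.869 FPKM in DMS153, 21.1 and 21.3 FPKM in H209, and 0.0375, 0 and 0 FPKM in MRC5. MAGEA11, whose protein binds the androgen receptor, had at most 0.0432 FPKM in DMS153, 4.41 and 6.08 FPKM in H209 and at most 0.000791 FPKM in MRC5. MAGEA10 had at most 0.0952 FPKM in DMS153, 7.94 and 5.88 FPKM in H209, and 0 in MRC5. These 5 genes were called lower in DMS153 than in H209, with log2 fold changes from -4.25 ± 0.11 for MAGEA4 to -2.60 ± 0.11 for MAGEA11 among those not listed at 0 in DMS153 (limma adjusted p = 3.83e-09 and 7.89e-08). MAGEA12 was called higher than in MRC5 in H209, at 4.45 ± 0.08 (limma adjusted p = 1.13e-10). In DMS153 its value of 0.89 ± 0.07 missed the fold threshold, but it was called with TPM scaling at 1.02, and with pseudocounts of 0.1 and 0.01 at 3.14 and 5.72.

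Along the chromosome the shared genes were neighbours. In hg19 the genes from MAGEA6 (chrX:151867214-151870825) to MAGEA3 (chrX:151934652-151938240) span 71.0 kb, and this block also holds MAGEA2B, MAGEA12, MAGEA2 and the cancer testis genes CSAG1, CSAG2 and CSAG3. CSAG2 averaged 7.97 ± 0.336 FPKM in DMS153 (SD, n = 3) and 7.86 ± 1.19 FPKM in H209 (SD, n = 2) and was listed at 0 in MRC5, and CSAG3 had nearly the same values. CSAG1, next to MAGEA12, averaged 2.83 ± 0.597 FPKM in DMS153, 33.4 ± 0.000849 FPKM in H209 and 0.0409 ± 0.0358 FPKM in MRC5 (SD, same n), with a log2 fold change in DMS153 against H209 of -3.18 ± 0.13 (limma adjusted p = 6.51e-08). MAGEA12 and CSAG1, adjacent at the middle of the block, were, with MAGEA3, the genes called lower in DMS153 among the members and CSAG genes of the block, while CSAG2 and CSAG3 differed between the carcinoma lines by 0.02 ± 0.10 each. The genes outside the block that reached 1 FPKM, MAGEA11, MAGEA4 and MAGEA10 before it and MAGEA1 at 543 kb beyond MAGEA3, did so in H209 alone.

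**Figure D3:**
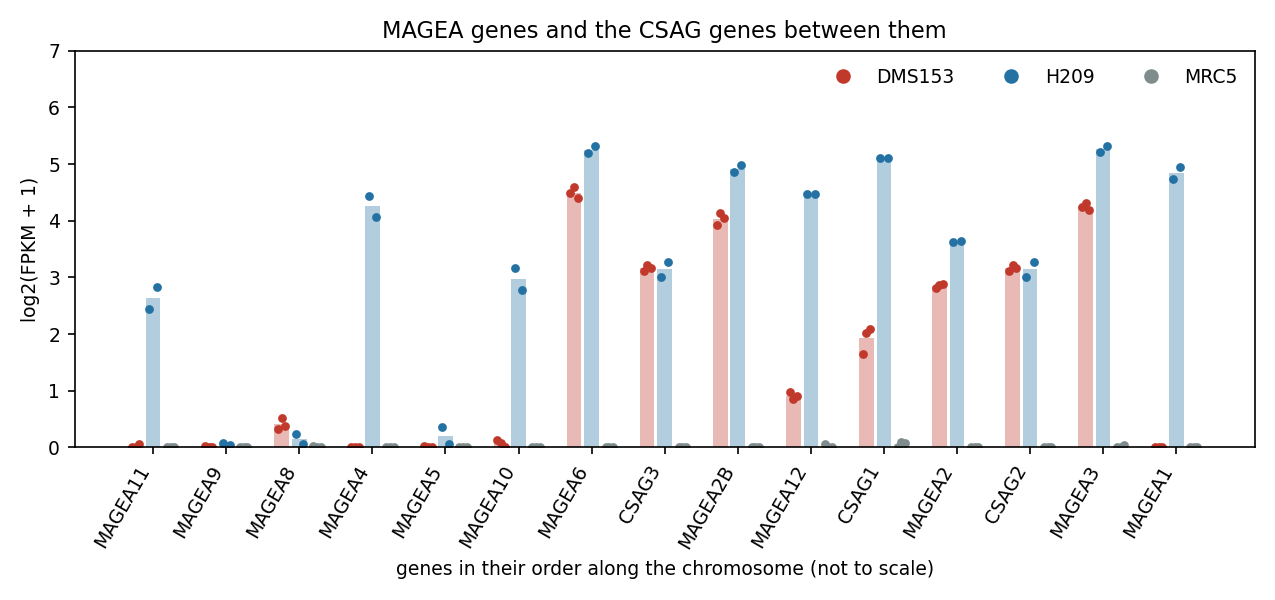
Level of the MAGEA genes and of MAGEA2B, CSAG1, CSAG2 and CSAG3 on the log2(FPKM + 1) scale, in their order along the X chromosome and not to scale, with bars for the line means (DMS153, H209, MRC5 from left to right) and points for the libraries. DMS153 bars rise between MAGEA6 and MAGEA3, while H209 bars also rise at MAGEA11, MAGEA4, MAGEA10 and MAGEA1.

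The MAGEC family switched genes between the carcinoma lines. MAGEC1, an antigen known from myeloma, had 17.2, 20.0 and 16.9 FPKM in DMS153, 1.03 and 0.800 FPKM in H209, and 0, 0.00330 and 0.00292 FPKM in MRC5. MAGEC2, whose protein also binds TRIM28, had 0.0278, 0.0121 and 0.0320 FPKM in DMS153, 2.60 and 1.86 FPKM in H209, and 0.0153, 0.0300 and 0.0398 FPKM in MRC5. MAGEC1 made up 98.8% of the family sum in DMS153, and MAGEC2 made up 66.5% of it in H209. In limma MAGEC1 was higher in DMS153 than in MRC5 by 4.24 ± 0.09 (adjusted p = 1.92e-10) and higher in DMS153 than in H209 by 3.31 ± 0.10 (adjusted p = 1.11e-08). MAGEC2 was lower in DMS153 than in H209, at -1.65 ± 0.10 (adjusted p = 6.26e-07), and higher in H209 than in MRC5, at 1.64 ± 0.10 (adjusted p = 2.45e-07), a call that ended at 0.95 under quantile normalization. MAGEC1 in H209 against MRC5, at 0.93 ± 0.10, missed the fold threshold, but was called with TPM scaling at 1.45, without H209 replicate 2 at 1.02, and with pseudocounts of 0.1 and 0.01 at 3.31 and 6.26.

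The MAGEC sum was 17.3, 20.3 and 17.1 FPKM in DMS153, 3.89 and 2.81 FPKM in H209, and 0.0153, 0.0333 and 0.0427 FPKM in MRC5. The 3 lines did not overlap, with DMS153 highest. The log2 fold change of the sum was 4.22 ± 0.11 in DMS153 against MRC5, 2.07 ± 0.12 in H209 against MRC5 and 2.15 ± 0.12 in DMS153 against H209 (limma adjusted p = 7.14e-10, 2.38e-07 and 4.94e-07). MAGEC3 stayed at or below 0.295 FPKM in every library.

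The GAGE cluster, a tandem array of small, largely unstructured antigens first known from melanoma, was high in DMS153 alone. Its sum over 17 genes was 58.1, 63.8 and 58.4 FPKM in DMS153, 0.163 and 0.0793 FPKM in H209, and 0.0243, 0.0230 and 0.00971 FPKM in MRC5. All DMS153 libraries lay far above the rest. The sum was higher in DMS153 than in MRC5 by 5.90 ± 0.07 (limma adjusted p = 9.41e-12) and higher in DMS153 than in H209 by 5.77 ± 0.08 (limma adjusted p = 7.57e-11). H209 against MRC5 gave 0.14 ± 0.08 (limma adjusted p = 0.151), and with a pseudocount of 0.01, which weighs values near 0 more, it was called at 2.14.

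Within the array the GAGE2 genes led. The 5 of them summed to 48.8 ± 2.13 FPKM in DMS153 (SD, n = 3), 0.00541 ± 0.00157 FPKM in H209 (SD, n = 2) and 0.00137 ± 0.00124 FPKM in MRC5 (SD, n = 3). The 9 GAGE12 genes summed to 11.2 ± 1.09 FPKM in DMS153, 0.0923 ± 0.0688 FPKM in H209 and 0.00184 ± 0.00116 FPKM in MRC5 (SD, same n). GAGE2A was highest, with 12.7, 12.9 and 11.9 FPKM in DMS153, and GAGE2C (11.1 FPKM on average), GAGE2D (8.91 FPKM), GAGE2E (8.91 FPKM) and GAGE2B (7.39 FPKM) followed. GAGE12F, GAGE12G and GAGE12I averaged 2.41, 2.41 and 2.32 FPKM in DMS153, and GAGE12C, GAGE12D and GAGE12E averaged 1.17, 1.17 and 1.20 FPKM. All 11 were called higher in DMS153 than in H209 and than in MRC5, but under quantile normalization the calls of GAGE12C, GAGE12D and GAGE12E ended, at 0.57 to 0.72 in both comparisons.

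The promoter printed for GAGE2A is the same in all 300 bases in 8 GAGE genes of the table, GAGE1, GAGE2A, GAGE12C, GAGE12D, GAGE12E, GAGE12F, GAGE12H and GAGE12J. Their mean levels in DMS153 nevertheless ran from 0.101 FPKM for GAGE1 to 12.5 FPKM for GAGE2A. The identical window thus went with unequal listed levels, and how reads were divided between these copies is not known.

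The PAGE family, relatives of GAGE, was carried by PAGE1. PAGE1 had 4.84, 4.11 and 3.94 FPKM in DMS153, 0 and 0.0625 FPKM in H209, and 0.0295, 0 and 0 FPKM in MRC5. DMS153 stood apart from the other lines, with log2 fold changes of 2.39 ± 0.08 against MRC5 and 2.36 ± 0.09 against H209 (limma adjusted p = 4.30e-09 and 5.01e-08). The family sum, 4.59 ± 0.442 FPKM in DMS153 (SD, n = 3), 0.0416 ± 0.0464 FPKM in H209 (SD, n = 2) and 0.122 ± 0.141 FPKM in MRC5 (SD, n = 3), did not pass the test in H209 against MRC5 (-0.10 ± 0.12, limma adjusted p = 0.446). The highest level of any member in an MRC5 library was that of another gene of this family, PAGE5, at 0.277 FPKM.

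The SSX family was also high in DMS153 alone, and nearly all of it was SSX6, which RefSeq lists as the transcribed pseudogene SSX6P. SSX6 had 26.3, 29.7 and 27.8 FPKM in DMS153, 0.0408 and 0.0154 FPKM in H209, and 0.00149, 0.00302 and 0.00243 FPKM in MRC5. It made up 93.2% of the family sum in DMS153. In limma it was higher in DMS153 than in MRC5 by 4.85 ± 0.07 (adjusted p = 2.77e-11) and higher in DMS153 than in H209 by 4.81 ± 0.08 (adjusted p = 2.80e-10). SSX4B had 1.06, 0.971 and 1.01 FPKM in DMS153 and at most 0.00221 FPKM in H209, and was listed at 0 in MRC5. Its near copy SSX4 had 0.837, 0.762 and 0.792 FPKM in DMS153, just under the level at which genes were tested. The SSX4B call in DMS153 against H209, at 1.01 ± 0.06 (limma adjusted p = 1.12e-06), ended with median ratio scaling at 0.93, under quantile normalization at 0.60 and without DMS153 replicate 1 at 0.99. SSX1 and SSX2, the partners in synovial sarcoma fusions, stayed at or below 0.142 FPKM in every library.

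PRAME, on chromosome 22, was the highest single gene of the set in both carcinoma lines. It had 62.2, 65.8 and 63.6 FPKM in DMS153, 143 and 147 FPKM in H209, and was listed at 0 in all 3 MRC5 libraries. The lines did not overlap. PRAME made up 28.5% of the level of all members in DMS153 and 46.1% in H209. It was lower in DMS153 than in H209 with a log2 fold change of -1.17 ± 0.06 (limma adjusted p = 3.91e-07).

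**Figure D4:**
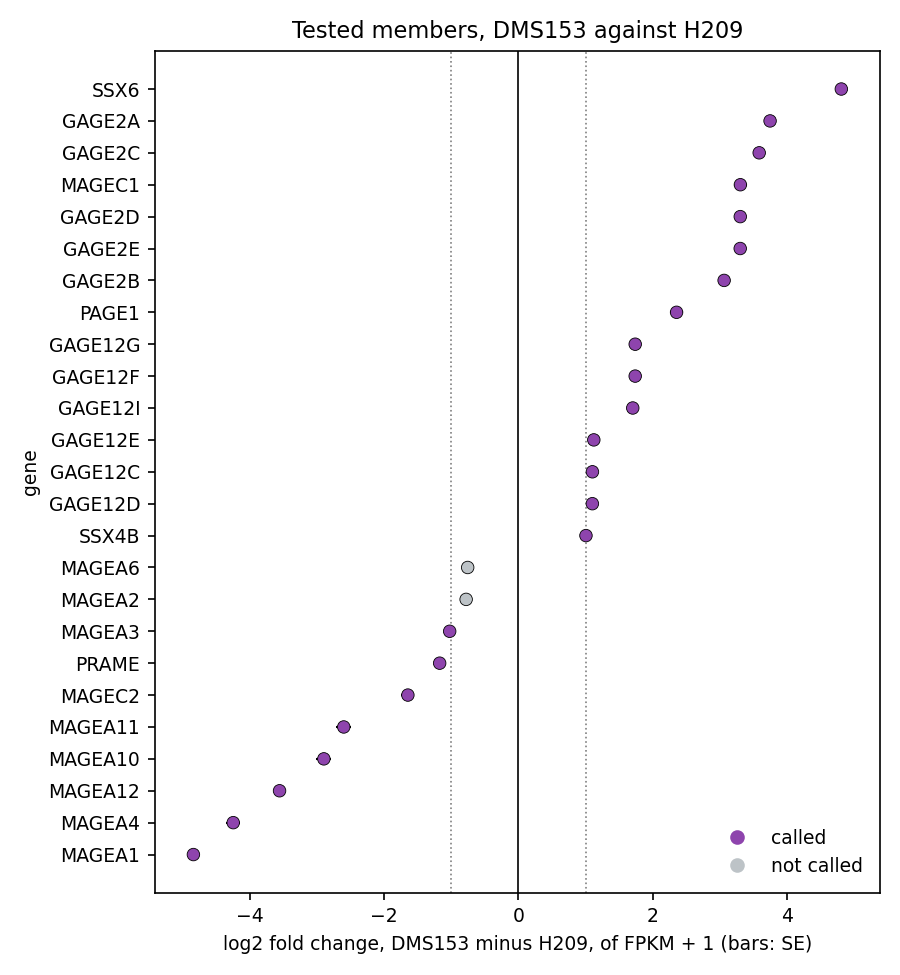
Log2 fold change of FPKM + 1, DMS153 minus H209, of each tested member, with SE bars that are mostly hidden by the symbols, dotted lines at the fold threshold and colour for the call. The SSX, GAGE and PAGE genes and MAGEC1 lie to the right, PRAME, MAGEC2 and the MAGEA genes to the left, with SSX6 at 4.81 outermost on the right and MAGEA4 at -4.25 on the left beside MAGEA1, whose position depends on the pseudocount since it is listed at 0 in DMS153.

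Several well-known members were close to silent in these lines. CTAG1B, which encodes NY-ESO-1, had at most 0.0346 FPKM in DMS153 and 0.00494 FPKM in H209 and was listed at 0 in MRC5, and CTAG2 was listed at 0 in DMS153, had 0.0194 and 0.0730 FPKM in H209 and was listed at 0 in MRC5. The MAGEB sum was at most 0.131 FPKM in DMS153, 0.339 FPKM in H209 and 0.0691 FPKM in MRC5, and the XAGE sum at most 0.0291, 0.0669 and 0.142 FPKM in the same order. The synaptonemal complex gene SYCP1 averaged 0.00276 ± 9.90e-05 FPKM in DMS153 (SD, n = 3), 0.00338 ± 0.000195 FPKM in H209 (SD, n = 2) and 0.00447 ± 0.000472 FPKM in MRC5 (SD, n = 3). The helicase gene DDX43 stayed at or below 0.0216 FPKM and the meiotic gene TEX15 at or below 0.166 FPKM in every library. Of the 49 members under 1 FPKM, 11 exceeded 0.1 FPKM on average in at least 1 line, the highest being SSX4 at 0.797 FPKM, just outside the limit, while SSX4B at 1.01 FPKM was the lowest inside it.

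Most of the tested genes that set, read or remove DNA methylation were higher in both carcinoma lines. Of 10 such genes 9 were tested, and 8 were called higher and 0 lower in DMS153 against MRC5, beside 34% and 16.4% of all genes tested. Their median log2 fold change was 2.46, beside 0.44 for all genes tested. In H209 against MRC5, 7 were called higher and 0 lower, beside 33% and 14.9%, with a median of 2.02 beside 0.46. HELLS, a remodeller needed for methylation, averaged 43.0 ± 1.48 FPKM in DMS153 (SD, n = 3), 29.4 ± 4.06 FPKM in H209 (SD, n = 2) and 1.83 ± 0.221 FPKM in MRC5 (SD, n = 3), and was called at 3.96 ± 0.09 in DMS153 and 3.42 ± 0.10 in H209 against MRC5 (limma adjusted p = 3.46e-10 and 2.59e-09). The de novo methyltransferase DNMT3B was called in DMS153 against MRC5 at 3.24 ± 0.07, and the maintenance factor UHRF1 in H209 against MRC5 at 2.97 ± 0.11 (limma adjusted p = 3.24e-10 and 1.11e-08). The TET genes, whose enzymes oxidise methylated cytosine towards its removal, are among those counts: TET1, TET2 and TET3 were called in DMS153 against MRC5 at 1.52, 1.36 and 2.35, and TET1 and TET3 in H209 against MRC5 at 1.51 and 2.65. Across the other 4 scalings, 6 to 8 of the 9 were called higher in DMS153 and 5 to 8 in H209, and 0 lower. At an unadjusted p under 0.05 with no fold threshold, 0 were lower in either line. Genes under 1 FPKM in every MRC5 library were tested only if a carcinoma line carried them over the filter, so these counts are descriptions.

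Meiotic genes outside the set divided the carcinoma lines as well. Of 14 genes of the synaptonemal complex and meiotic recombination 7 were tested. In DMS153 against MRC5, 7 were called higher and 0 lower (median 2.96), beside 34% and 16.4% of all genes tested (median 0.44). In H209 against MRC5, 2 were called higher and 0 lower (median 0.39), beside 33% and 14.9% (median 0.46). A gene under 1 FPKM in every MRC5 library could be tested only through a carcinoma line. The counts thus describe these genes and support nothing further. SMC1B, a meiotic cohesin subunit, had 44.6, 39.2 and 34.5 FPKM in DMS153, 0.125 and 0.0830 FPKM in H209, and at most 0.0119 FPKM in MRC5. STAG3, another meiotic cohesin subunit, had 27.4, 32.8 and 27.8 FPKM in DMS153, 1.13 and 1.22 FPKM in H209, and 0.291, 0.140 and 0.0686 FPKM in MRC5. Both were high in DMS153 alone. Of the 7 genes 5 were called higher in DMS153 than in H209 and 0 lower, beside 13.8% and 13.4% of all genes tested. SMC1B was called at 5.19 ± 0.11 and STAG3 at 3.80 ± 0.11 (limma adjusted p = 1.18e-09 and 1.09e-08). DMC1, the meiotic recombinase, had 23.5, 28.9 and 19.6 FPKM in DMS153, 28.4 and 32.8 FPKM in H209 and at most 0.0800 FPKM in MRC5, and SYCE2 averaged 9.46 ± 1.82 FPKM in DMS153 (SD, n = 3), 5.18 ± 0.947 FPKM in H209 (SD, n = 2) and 0.330 ± 0.0845 FPKM in MRC5 (SD, n = 3). At an unadjusted p under 0.05 with no fold threshold, 7 were higher in DMS153 and 4 in H209 against MRC5 and 0 lower, and 1 was lower in DMS153 than in H209. The counts of this list were the same in all scalings, except that 3 were called in H209 with TPM scaling.

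The ubiquitous MAGE genes, which somatic tissues also use, were called in both directions. Of 10 tested, 0 were called higher and 3 lower in DMS153 against MRC5, beside 34% and 16.4% of all genes tested. In H209 against MRC5, 4 were called higher and 1 lower, beside 33% and 14.9%, shares near those of all genes. MAGED2 averaged 41.2 ± 4.64 FPKM in DMS153 (SD, n = 3), 46.3 ± 6.19 FPKM in H209 (SD, n = 2) and 135 ± 3.79 FPKM in MRC5 (SD, n = 3), with log2 fold changes against MRC5 of -1.69 ± 0.10 and -1.53 ± 0.11 in DMS153 and H209 (limma adjusted p = 1.47e-07 and 7.94e-07). NDN, the imprinted gene of necdin, had 0.00983, 0.0193 and 0 FPKM in DMS153, 7.88 and 8.14 FPKM in H209, and 3.51, 3.42 and 3.38 FPKM in MRC5, and was lower in DMS153 than in MRC5 at -2.14 ± 0.07 (limma adjusted p = 2.16e-09). MAGEE1 and MAGEF1 were called higher in H209 than in MRC5 at 1.68 ± 0.11 and 1.66 ± 0.06 (limma adjusted p = 5.05e-07 and 1.48e-08), and the MAGEE1 call ended under quantile normalization at 0.88. With no fold threshold and an unadjusted p under 0.05, 3 were higher and 4 lower in DMS153 against MRC5, and 7 higher and 2 lower in H209 against MRC5. The count called higher in H209 ran from 1 to 5 across the scalings.

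Partners of these proteins were called in numbers that moved with the scaling. Of 8 tested partners of MAGE proteins, 2 were called higher and 0 lower in DMS153 against MRC5, and 4 higher and 1 lower in H209 against MRC5, beside the shares of all genes given above. The higher calls ran from 1 to 5 in DMS153 and from 2 to 6 in H209 across the scalings. At an unadjusted p under 0.05 with no fold threshold, 6 were higher and 1 lower in DMS153, and 6 higher and 2 lower in H209. SKP2 was called at 1.59 ± 0.09 in DMS153 and 1.97 ± 0.10 in H209, and TRIM28 at 1.01 ± 0.09 and 1.62 ± 0.10 in the same order (limma adjusted p = 1.85e-07, 1.08e-07, 3.19e-06 and 2.77e-07). The TRIM28 call in DMS153 ended with median ratio scaling at 0.53 and with TPM scaling at 0.57. NSMCE1 was lower in H209 at -1.17 ± 0.09 (limma adjusted p = 1.09e-06), a call that ended with TPM scaling at -0.99 and without small RNA and mitochondrial genes in the scaling at -0.95. Of 6 PRAME partners, 1 was called higher and 2 lower in each carcinoma line against MRC5. Of all genes tested, 34% were called higher and 16.4% lower in DMS153, and 33% and 14.9% in H209. EZH2, the histone methyltransferase with which PRAME acts on retinoic acid receptor targets, was called at 4.22 ± 0.08 in DMS153 and 4.24 ± 0.09 in H209 (limma adjusted p = 9.03e-11 and 2.92e-10). CUL2, the cullin of the PRAME ligase, and TCEB1, its elongin C, were lower in DMS153 at -1.51 ± 0.08 and -1.27 ± 0.06 (limma adjusted p = 7.49e-08 and 2.42e-08), and TCEB2 and RARA were lower in H209 at -1.21 ± 0.11 and -1.15 ± 0.14 (limma adjusted p = 5.28e-06 and 5.10e-05). The calls of TCEB1, TCEB2 and RARA ended, at -0.93 to -0.98, without small RNA and mitochondrial genes in the scaling. The partners called lower in DMS153 against MRC5 numbered 4 with TPM and with median ratio scaling, which added TCEB2 at -1.14 and -1.18 and RARA at -1.06 and -1.08, and 3 under quantile normalization.

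Of the other cancer testis genes 34 were listed and 16 were tested. Those under 1 FPKM in every MRC5 library could enter only through a carcinoma line, so the counts describe these genes and support nothing further. In DMS153 against MRC5, 12 were called higher and 0 lower (2 lower at an unadjusted p under 0.05 with no fold threshold), beside 34% and 16.4% of all genes tested. TTK at 4.42 ± 0.25 and CEP55 at 4.17 ± 0.13 led (limma adjusted p = 1.38e-07 and 2.40e-09). In H209 against MRC5, 12 were called higher and 1 lower, beside 33% and 14.9%. CSAG1 at 5.05 ± 0.13 and TTK at 3.78 ± 0.28 led (limma adjusted p = 1.03e-09 and 1.11e-06). IL13RA2 was lower at -1.001 ± 0.10 (limma adjusted p = 7.57e-06), a call that ended without small RNA and mitochondrial genes in the scaling at -0.89. Across the scalings the higher calls ran from 11 to 13 in DMS153 and from 10 to 12 in H209. The lower calls ran from 0 to 2 in DMS153 and from 0 to 1 in H209. TTK and CEP55 are mitotic genes that dividing somatic cells also use. CTCFL, which encodes the testis paralogue of CTCF, stayed at or below 0.0847 FPKM in every library. Of 13 germ cell and piRNA genes 3 were tested, TDRKH was called higher than in MRC5 at 3.03 ± 0.07 in DMS153 and 2.48 ± 0.07 in H209, and SPOCD1 was called lower at -4.77 ± 0.08 and -5.11 ± 0.10 in the same order (limma adjusted p = 2.67e-10, 2.84e-09, 7.38e-11 and 1.70e-10).

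The Hi-C tables place few of these genes in a domain, a stretch of chromatin with contacts mostly inside itself. With 1 Hi-C library a line, these are descriptions with no replicate check. A member counted as inside when a listed domain covered its midpoint: 16 of 74 genes for DMS153, 16 for H209 and 11 for MRC5. No line had a domain over the midpoint of 46 of them. On the X chromosome 20%, 21.4% and 12.9% of the 70 members were inside a domain, in the order DMS153, H209 and MRC5, beside 50.7%, 50.6% and 45.4% of the other 2322 X-linked genes. Many of the members are neighbouring copies in clusters, so they are not 70 separate placements, and the difference in shares was not tested. How Hi-C reads of near-identical copies were treated is also not given in the sources used here. Its part in the missing domains was not tested. The GAGE2 and GAGE12 genes, CTAG and XAGE were inside none in any line.

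For 3 of the 11 MAGEA genes the same domain was listed in all 3 lines, while the RNA of MAGEA4 and MAGEA10 was unequal. A domain at chrX:150900000-151819998 (hg19) was listed with the same ends in DMS153, H209 and MRC5 and holds MAGEA4, MAGEA5 and MAGEA10, of which MAGEA4 and MAGEA10 were at 18.2 and 6.91 FPKM on average in H209 and near 0 in the other lines. The block from MAGEA6 to MAGEA3, at high levels in both carcinoma lines, begins 47.2 kb beyond its end and was inside no domain in any line. MAGEA11, MAGEA9 and MAGEA8 were inside a domain in DMS153 alone (chrX:148600000-149119998), where MAGEA11 averaged 0.0181 FPKM. SSX6 at chrX:47967367-47980068 was inside a domain in DMS153 (chrX:47920000-48379998) and in H209 (chrX:47940000-48219998) and in none in MRC5, although its level was high in DMS153 alone. PRAME at chr22:22890123-22901768 was inside a domain in DMS153 alone (chr22:22700000-22939998), while its level was higher in H209.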

How the data were processed

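RNA was measured in 8 libraries and chromatin contacts in 3. Per the submitters' processing notes, the tools included TopHat2 2.1.0, Bowtie2, HOMER 4.8 and Cufflinks 2.2.0, on the build hg19. The sources used here do not give the RNA selection, the strand or how reads of near-identical copies were assigned, so overlapping and antisense genes can share reads. Per the file headers, the RNA values are FPKM with the bounds of a confidence interval, used as deposited. The files hold no counts, so depth is unknown. The interval's half-width had a median of 15.5% of the value for members at 1 to 10 FPKM and of 5.22% above 10 FPKM, and covers the estimate in 1 library only. Of all listed genes 157 carried a failed status in a library, and 0 members did. The Hi-C tables give the ends of domains and a deposited score of unstated meaning, used only to rank domains.

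Libraries were grouped by the cell line field. FPKM plus a pseudocount of 1 was taken to log2 and fitted with limma 3.58.1 (R 4.3.3, eBayes with trend, 1 mean per line, 2-sided) over 19066 genes with at least 1 FPKM in 2 libraries, and adjusted by Benjamini-Hochberg over all of them. Family sums replaced their members in a second fit. The code was tested on simulated data. Named were every member that averages 1 FPKM in a line, PRAME, CTAG1B, CTAG2, MAGEA1, MAGEA3, MAGEA4 and MAGEC1, and up to 2 risen and 2 fallen genes of each other list. Further genes named were chosen after their values were seen: MAGEA2B and the other CSAG genes, MAGEA5, MAGEA8, MAGEA9, MAGEC3, PAGE5, SSX1, SSX2, SSX4, CTCFL and the GAGE genes with the shared promoter. The members and lists were chosen with earlier results of these data known. Other pseudocounts, filters, scalings and fits, and each library left out, were tried. Of the neuroendocrine markers 1 is not reported here. Coordinates are 1-based.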

Additional observations from a re-analysis of the deposited data

Results flagged for a closer look

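The effects against MRC5 differed between the carcinoma lines for all 5 tested family sums and for PRAME, by the test of the difference itself, which is the limma comparison of DMS153 against H209. In the fit of the sums, 2611 of all 19047 rows were called higher and 2541 lower. The 5 sums passed the filter through a carcinoma line, and the MAGEB, XAGE and CTAG sums, low in every line, were not tested. The count thus describes these sums and supports nothing further. The difference on the log2(FPKM + 1) scale was 5.77 for GAGE, 4.83 for SSX, 2.42 for PAGE and 2.15 for MAGEC, all higher in DMS153. It was -1.80 for MAGEA and -1.17 for PRAME, both lower in DMS153. MAGEA2B, a gene that the symbol rule leaves out, averaged 15.4 ± 1.19 FPKM in DMS153 (SD, n = 3) and 29.3 ± 1.72 FPKM in H209 (SD, n = 2) and was listed at 0 in MRC5. With MAGEA2B and MAGEA9B added, which was chosen after seeing the data, the MAGEA sum was 62.6 ± 3.21 FPKM in DMS153, 195 ± 5.41 FPKM in H209 and 0.0481 ± 0.0294 FPKM in MRC5 (SD, same n).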

How the results depend on the processing

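Under 22 other settings, 1872 values of single members and family sums were recomputed: 1820 kept their call status, 36 calls ended, 16 began and 0 calls turned round. For values called neither before nor after, a change of sign was not counted. Members called higher in DMS153 against MRC5 fell to 11 when 5 FPKM was required and to 12 with a minimum log2 fold change of 2, fewer by construction. In DMS153 against H209 the higher calls fell to 7 and 8 under the same settings, and the lower calls to 5 with the minimum of 2, which also left 0 families lower. With a pseudocount of 0.01, 4 families were called higher in H209 against MRC5 in place of 2. The added calls were GAGE at 2.14 and SSX at 2.78, both of sums near 0. GAGE averaged 0.121 FPKM in H209 and 0.0190 FPKM in MRC5, and SSX 0.0864 and 0.00359 FPKM in the same order. The cause was not tested. Leaving out each library in turn gave 18 to 19 members higher in DMS153 against MRC5, 10 to 11 in H209 against MRC5, and 14 to 15 higher and 7 to 8 lower in DMS153 against H209, with 5, 2, 4 and 1 families in the same order. Keeping domains with the upper 50% of scores left 5 members inside a domain in H209 and 6 in MRC5, of fewer domains. The replicate block changed no count, with 19 members higher in DMS153 against MRC5, 10 in H209 against MRC5, and 15 higher and 8 lower in DMS153 against H209. Deviations of same-numbered libraries correlated at -0.01 to 0.12, so the numbers were taken as names only. Calls that changed were of members near 1 FPKM, such as SSX4B, and of higher members, such as MAGEA3.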
